A study of Mus musculus with 63 samples.

Results

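The data described here are the vehicle arm of an organoid time course between its last sampled days. Small intestinal organoids of 1 mouse line were exposed to ethanol (EtOH) and collected 7 and 10 days later on the time course's own count of days. Members were taken by label: the 3 EtOH libraries of day 10 and the 3 EtOH libraries of day 7, which are 6 of the 24 libraries in the time-course count table and 6 of the 63 samples of the series. Poly-A RNA was sequenced as paired ends and counted per gene. The line is VillinCreERT2; Cdk8 fl/fl; Cdk19 ko/ko on C57BL/6. Both the EtOH and the 4-hydroxytamoxifen (4-OHT) groups are therefore labelled as Cdk19 knockouts, although reads were counted for Cdk19 in every library used here, as given further on, and the floxed Cdk8 allele was left intact where the organoids were given EtOH (0.001% for 24 h). In the parallel arm, 100 nM 4-OHT for 24 h activates the Cre, which the Villin promoter restricts to intestinal epithelium. The medium held Noggin, R-spondin and EGF and the organoids sat in Matrigel, and the labels name no added stroma or immune cells. The labels do not say whether the 3 libraries of a day came from separate cultures, nor whether organoids were passaged between days 7 and 10, so p-values measure only the spread between these libraries.

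Intestinal organoids are closed epithelial structures grown from crypts. Lgr5-positive stem cells divide in crypt-like buds, and their progeny become absorptive enterocytes or secretory Paneth, goblet, enteroendocrine and tuft cells. Atoh1 and, downstream of it, Neurog3 and Pou2f3 direct the secretory fates, while Notch signalling holds cells in the absorptive one. After injury or in fresh culture, the epithelium can turn on a regenerative, fetal-like set of genes such as annexins, Msln and Clu. Immediate early genes such as Dusp1 and Junb are switched on within minutes by growth factors through MAPK signalling.

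Promoter letters are shown for 4 genes on which the results below turn, 2 from the immediate early and clock groups that fell and 2 from the regenerative group that moved in opposite directions. Each run is the 250 bases before the transcription start in RefSeq (GRCm38.p6), 5′ to 3′ on the gene's own strand, with motif matches in capitals. Only windows that held a match to the motifs searched are shown. Per1 has 2 start windows in the table, of which the first is shown. Both strands were searched for 4 motifs: the cAMP response element TGACGTCA, the E-box CACGTG read by clock factors, the AP-1 site TGANTCA and the D-box TTATGNAA read by PAR bZIP factors.
Dusp1, chr17:26508473-26508722, minus strand: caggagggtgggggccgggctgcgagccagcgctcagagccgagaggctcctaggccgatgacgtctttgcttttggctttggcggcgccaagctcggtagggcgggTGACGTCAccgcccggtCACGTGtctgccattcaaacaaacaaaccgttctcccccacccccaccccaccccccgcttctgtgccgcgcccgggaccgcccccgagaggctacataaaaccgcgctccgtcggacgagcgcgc
Per1, chr11:69098699-69098948, plus strand: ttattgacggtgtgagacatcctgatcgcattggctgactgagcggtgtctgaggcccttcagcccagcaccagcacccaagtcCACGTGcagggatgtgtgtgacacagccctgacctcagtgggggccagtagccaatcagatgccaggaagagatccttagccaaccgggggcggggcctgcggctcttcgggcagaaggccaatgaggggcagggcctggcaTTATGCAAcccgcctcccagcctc
Anxa10, chr8:62123194-62123443, minus strand: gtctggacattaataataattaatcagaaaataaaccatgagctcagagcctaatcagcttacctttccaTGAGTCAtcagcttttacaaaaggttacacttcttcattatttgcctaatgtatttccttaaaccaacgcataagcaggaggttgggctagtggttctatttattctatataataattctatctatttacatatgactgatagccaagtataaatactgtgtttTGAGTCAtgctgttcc
Sprr1a, chr3:92485882-92486131, minus strand: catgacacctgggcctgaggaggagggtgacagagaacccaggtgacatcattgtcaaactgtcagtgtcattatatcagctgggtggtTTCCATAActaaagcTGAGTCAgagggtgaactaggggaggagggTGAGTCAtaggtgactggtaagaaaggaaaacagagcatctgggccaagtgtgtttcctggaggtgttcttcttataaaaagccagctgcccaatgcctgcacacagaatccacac
The Dusp1 window held a cAMP response element 143 bases and an E-box 126 bases before the start. The Per1 window held an E-box at 166 and a D-box at 24 bases. The Anxa10 window held AP-1 letters at 180 and 16 bases. Sprr1a held AP-1 letters at 146 and 116 bases and a D-box at 161. The motifs do not overlap each other in these windows. Over the 27025 genes with a window in the RefSeq table, 1.77% held the cAMP response element, 6.86% the E-box, 7.82% the AP-1 letters and 3.63% the D-box. Among the immediate early genes tested, 17 of 21 had a window, of which 3 held the cAMP response element, 5 the E-box and none the AP-1 letters. Among clock genes, 14 of 17 had a window, of which 4 held an E-box and 2 a D-box. Of the regenerative genes, 12 of 21 had a window and 4 held AP-1 letters. Of the 9 that rose, 5 had a window and 1, Anxa10, held AP-1 letters. The 1 that fell, Sprr1a, held them. A match of letters is a description and not a binding site.

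The 6 libraries held 19110500 to 20681798 counts each. Libraries of 1 day correlated with each other at 0.988 or above on the log2 CPM scale (CPM being the count scaled to a common TMM-adjusted library total), and those of different days at 0.969 to 0.977. The day 10 libraries stood apart from the rest of the table in measures other than single genes. The share of counts from mitochondrial genes was 3.09 to 3.58% at day 7 and 1.5 to 1.6% at day 10, and fell likewise in the 4-OHT arm (2.82 to 3.7% against 1.63 to 1.96%). The median change of protein-coding genes moved with GC content, from 0.23 (log2) in the tenth of genes with the lowest GC to -0.22 in the tenth with the highest, whereas from day 5 to day 7 it ran from 0.05 to -0.03. GC and length of the longest transcript together accounted for an R2 of 0.0908 of the change. Of 1412 processed pseudogenes tested, 285 rose and 265 fell, and their median share of 31-base words found in another gene was 62.2%, so reads of parent genes cannot be told from theirs. Of 450 antisense genes, 11 rose and 107 fell (median -0.49). The strand setting of the counting is not given in the sources used here, so reads of an antisense gene and its partner cannot be told apart. The labels do not say whether the day 10 libraries were prepared or sequenced with the others, so day and library run cannot be told apart. List counts are therefore also given after a correction for GC and length. What part the library run, the mitochondrial share and the GC trend have in the results was not tested.

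**Figure D1:**
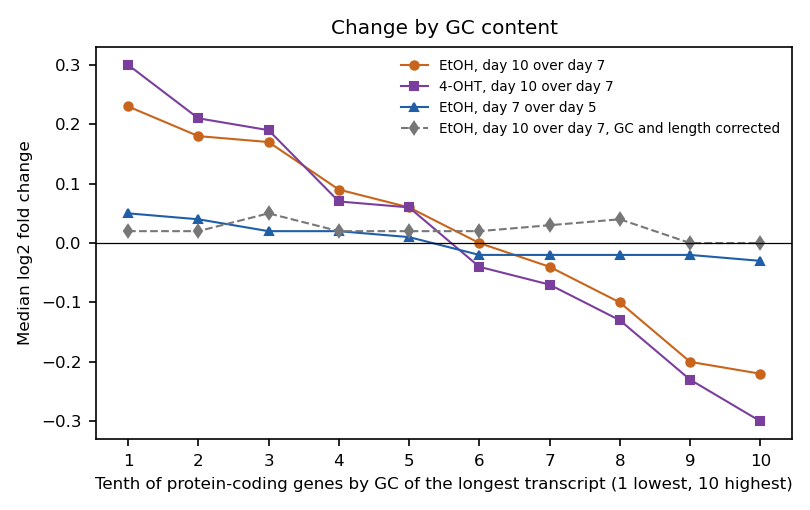
Median log2 fold change (y axis) of protein-coding genes in 10 equal groups by GC content of the longest transcript (x axis, 1 lowest). The lines of both day 10 to day 7 comparisons fall across the groups, from 0.23 to -0.22 with EtOH and from 0.30 to -0.30 with 4-OHT, while the day 7 to day 5 line stays near 0 and the corrected line (dashed) is flat.

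The labelled tissue was checked against its markers. Vil1, the brush border villin, was at 711, 792 and 706 CPM at day 7 and at 774, 691 and 737 CPM at day 10. The stem cell marker Lgr5, the Paneth cell marker Lyz1 and the goblet cell mucin Muc2 were present at both days. Of the immune markers, Cd68 alone passed the filter on low counts, and others such as Ptprc and Cd3e did not. Of 13 mesenchyme and endothelium markers 4 passed. Their summed level was 5.04 to 31 CPM at day 7 and 4.26 to 4.7 CPM at day 10, and the high value came from Col1a1, which is described below. Of 31 enteroendocrine markers 12 passed, and hormone genes such as Chga, Cck and Gcg did not.

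From day 7 to day 10 the vehicle organoids lost transcripts of some immediate early, clock, hypoxia, cytochrome P450, tuft and enteroendocrine genes, and gained transcripts of some regenerative, Reg lectin and several stem cell genes. A gene was called when its edgeR quasi-likelihood adjusted p was under 0.05 and its fold over 1.5. Of 15447 genes tested, 3601 (23.3%) were called, of which 1451 (9.39% of those tested) rose and 2150 (13.9%) fell. The step just before, from day 5 to day 7 with EtOH, had 88 calls (0.570%), 44 in each direction, and shares the day 7 libraries. Leaving out 1 library moved that smaller count between 3 (without day 5 replicate 1) and 164 (without day 7 replicate 3), and it was 18 and 7 without day 7 replicates 1 and 2 and 162 without day 5 replicate 3. In bulk RNA, fewer cells of a type and less RNA per cell cannot be told apart. With a count of libraries alone, the 3 day 10 libraries lay all above the 3 of day 7 for 4780 genes (30.9%) and all below for 4380 (28.4%). After the GC and length correction 1061 genes (6.87%) rose and 2209 (14.3%) fell.

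**Figure D2:**
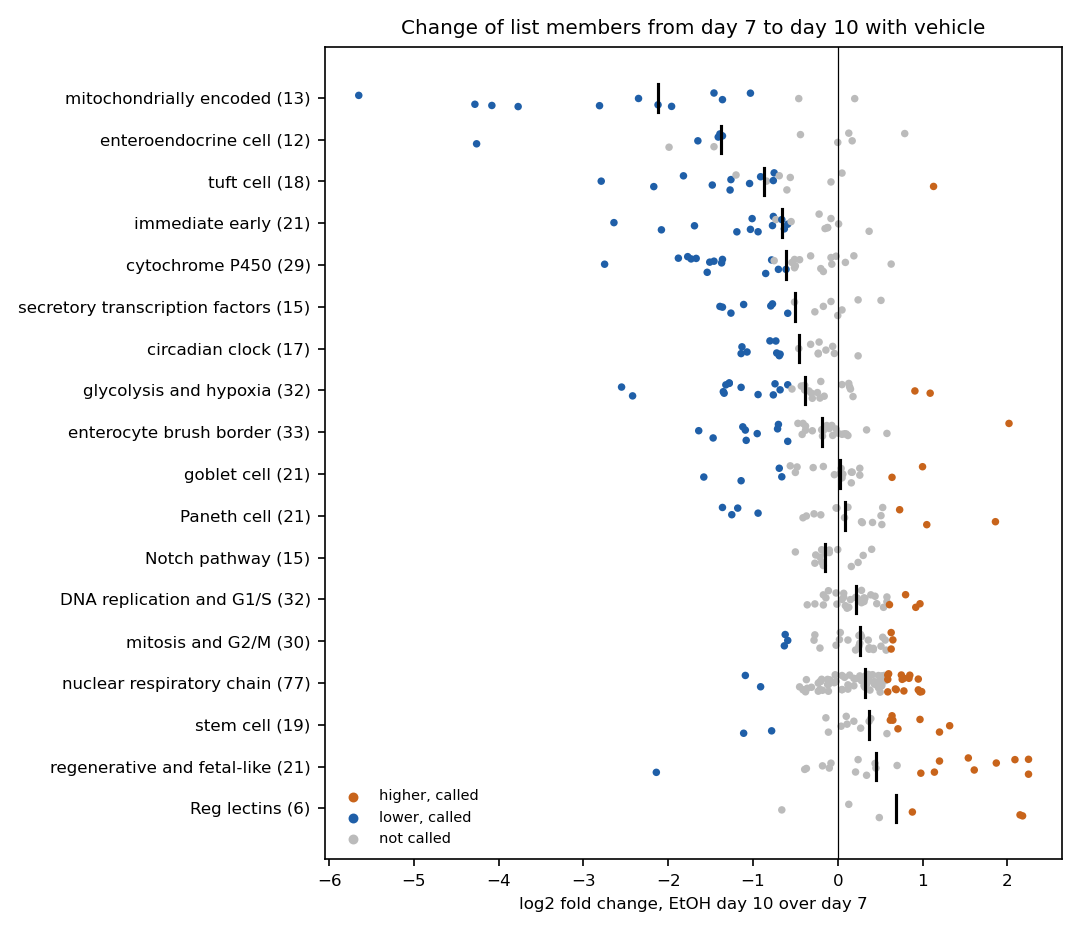
Log2 fold change of EtOH day 10 over day 7 (x axis) for each tested member of 18 gene lists, with the number tested in brackets. Orange points rose and blue points fell by the call, grey points were not called, and the black bar is the list's median, which is lowest for the mitochondrially encoded genes (-2.12) and highest for the Reg lectins (0.69).

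The largest called changes by rule were mostly genes that share sequence with others. Among genes averaging at least 50 counts, the rises were led by Rps18-ps3, a ribosomal protein pseudogene, which went from 2.67, 1.24 and 1.73 to 11.4, 12 and 11.4 CPM although 86.4% of its words occur elsewhere. Gm3788, with 80.2% of its words elsewhere, fell from 836, 528 and 617 to 42.7, 48.8 and 49 CPM. Of 8735 nuclear protein-coding genes with under 5% of shared words, 647 (7.41%) rose and 1048 (12%) fell. Among these, a selection added after the values were seen, the leading rises were Msln, Reg3b, Reg1, Anxa10, Tm4sf1, Tmigd1, Mbl2, Edn2, Capg and Ccl20. The leading falls were Col1a1, Spred3, Wipf1, Cyp26b1, Alox12b, Adm, Celf3, Mapre3, Pik3r5 and Sprr1a. Mapre3, a microtubule plus-end binding protein, stood at 12.2, 10.7 and 9.54 CPM at day 7 and at 1.65, 2.48 and 2.38 CPM at day 10. The groups were far apart (log2 change -2.31 ± 0.16 SE, adjusted p = 1.99e-12). Celf3, an RNA-binding splicing regulator, went from 24.3, 19.4 and 13.8 to 4.55, 3.64 and 3.15 CPM (-2.34 ± 0.29). Edn2, the peptide endothelin 2, rose from 2.52, 1.98 and 2.34 to 8.52, 7.79 and 7.46 CPM (1.80 ± 0.21). Col1a1, a fibroblast collagen, was at 26.3 CPM in day 7 replicate 2 and at 0.555 and 0.508 CPM in the other two, and at or near 0 at day 10. The size of its change rested on that library. Without it Col1a1 was still called as lower (-4.56, a fitted value that is no bound since day 10 is near 0), but the call was lost with limma-voom (adjusted p = 0.0639) and when only the groups compared were fitted (adjusted p = 0.118), and DESeq2 gave no adjusted p for it.

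By level, the largest called gains besides a ribosomal RNA gene were Lyz1, Rplp0, Rack1 and Olfm4, and the largest losses were mitochondrial genes and Lgals2. Lgals2, an intestinal galectin, fell from 4570, 3480 and 4570 to 1560, 1580 and 1560 CPM. All 3 day 10 libraries lay well below the day 7 range (-1.43 ± 0.088, adjusted p = 1.53e-13). Rack1, a scaffold protein of the small ribosomal subunit, rose from 1400, 1290 and 1440 to 2260, 2500 and 2470 CPM (0.81 ± 0.069).

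Of 21 immediate early genes tested, 12 fell and none rose (median change -0.66, against 0.001 over all genes tested). Dusp1, the phosphatase that switches MAP kinases off, stood at 31.8, 28.7 and 27.1 CPM at day 7 and at 5.62, 7.13 and 7.96 CPM at day 10. The groups did not overlap (-2.08 ± 0.17, adjusted p = 3.61e-10), with day 10 wholly below day 7 as for 28.4% of all genes tested. Junb, an AP-1 subunit, went from 174, 162 and 155 to 75.7, 62.5 and 77.1 CPM (-1.19 ± 0.082). Jund, its more steadily expressed relative, went from 337, 286 and 278 to 134, 140 and 167 CPM (-1.03 ± 0.089). Zfp36, which speeds the decay of AU-rich mRNAs, fell from 166, 155 and 149 to 75.1, 76.7 and 82 CPM. Myc, the growth-promoting transcription factor and Wnt target, fell from 306, 273 and 317 to 158, 157 and 153 CPM (-0.94 ± 0.071). The AP-1 partner Fos did not pass the test and its libraries overlapped, at 18.3, 18.6 and 21.6 against 14.4, 17.7 and 20.5 CPM (-0.15 ± 0.12, adjusted p = 0.304). After the GC and length correction 9 of the 21 fell, and Maff (-0.53) and Jun (-0.46) no longer passed the fold. Jun also missed it without day 7 replicate 3 (-0.57) and without day 10 replicate 1 (-0.55).

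Of 21 EGF ligands and feedback regulators of MAPK signalling, 1 rose and 2 fell (median -0.30), and none rose and 4 fell after the GC and length correction. Before the correction both shares were below the 9.39% rises and 13.9% falls over all genes tested. Of the 15 members with under 5% of shared words, 1 rose and none fell. The list's median was -0.10 without day 10 replicate 1. Phlda1, a pleckstrin-homology protein induced by MAPK activity, fell from 238, 150 and 234 to 65.5, 70.8 and 71 CPM (-1.59 ± 0.14). Fosl1, another AP-1 subunit, went from 4.64, 3.26 and 3.81 to 1.74, 1.97 and 1.88 CPM (-1.06 ± 0.20), with 60.4% of its words in other genes. Spred1, an inhibitor of Ras signalling, rose from 46.2, 44.9 and 47.3 to 69.6, 72.2 and 75.8 CPM (0.65 ± 0.072), but at 0.55 it missed the fold after the GC correction. Its relative Spred3, outside the list, fell from 2.77, 3.56 and 2.23 to 0.387, 0.253 and 0.254 CPM.

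Of 17 clock genes tested, 8 fell and none rose (median -0.46). The fallers included period genes and repressors, the activator Npas2 and the output gene Dbp. Per2, a period protein that represses CLOCK and BMAL1, went from 48.6, 53.7 and 41.5 to 23.2, 21.9 and 23.5 CPM (-1.07 ± 0.096, adjusted p = 1.9e-10). Per1 went from 57.2, 48.1 and 46.8 to 27.1, 20 and 22.5 CPM (-1.13 ± 0.14). Nr1d1, the REV-ERBα repressor, went from 102, 95.3 and 85.5 to 48.8, 36.5 and 43.3 CPM (-1.14 ± 0.12). No library of either day overlapped the other for these 3 genes. The same held, in this direction, for 28.4% of all genes tested. Per3 fell by 0.80 and Bhlhe40, a further repressor of the clock, by 0.68. The activators Arntl (-0.32, adjusted p = 0.00338) and Clock (-0.14, adjusted p = 0.108) were not called, and Clock overlapped between days. The hour of collection is not given in the sources used here. After the GC and length correction 6 of the 17 fell against 8 before it, and Npas2 (-0.58) was among those no longer called.

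Of 21 regenerative and fetal-like genes tested, 9 rose, 1 fell and 11 were not called (median 0.45), and 11 rose and 1 fell after the GC and length correction. The median was 0.76 without day 7 replicate 2. Keeping just genes that reach 10 counts in each library, 6 of the remaining 17 rose and the median was 0.29. Anxa10, an annexin of the stomach and of damaged epithelium, was at 3.38, 3.41 and 3.91 CPM at day 7 and at 13.6, 16.7 and 15.5 CPM at day 10 (2.09 ± 0.18, adjusted p = 1.23e-10). Msln, the surface protein mesothelin, went from 11.5, 16.6 and 12.4 to 89.7, 53.2 and 50.5 CPM (2.25 ± 0.29). S100a6, a calcium-binding protein, went from 102, 83.6 and 71.9 to 314, 217 and 220 CPM (1.54 ± 0.16). Day 10 replicate 1 was the highest library for both Msln and S100a6, and the other two libraries of day 10 also lay above every day 7 library. Anxa3 (1.61 ± 0.18) and Anxa1 (1.14 ± 0.26), further annexins, rose too, as did the secreted chaperone Clu, from 26.4, 28.5 and 38 to 85.9, 66.9 and 60.2 CPM. Sprr1a, a cornified-envelope protein and the only member that fell, went from 194, 116 and 133 to 34.8, 35.7 and 29.9 CPM (-2.14 ± 0.29, adjusted p = 7.03e-06). Ly6a, often used as the defining marker of this state, was at 8.93, 9.35 and 17.9 CPM and then at 11.4, 14.6 and 15.7 CPM, so the days overlapped (0.21 ± 0.33, adjusted p = 0.623).

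**Figure D3:**
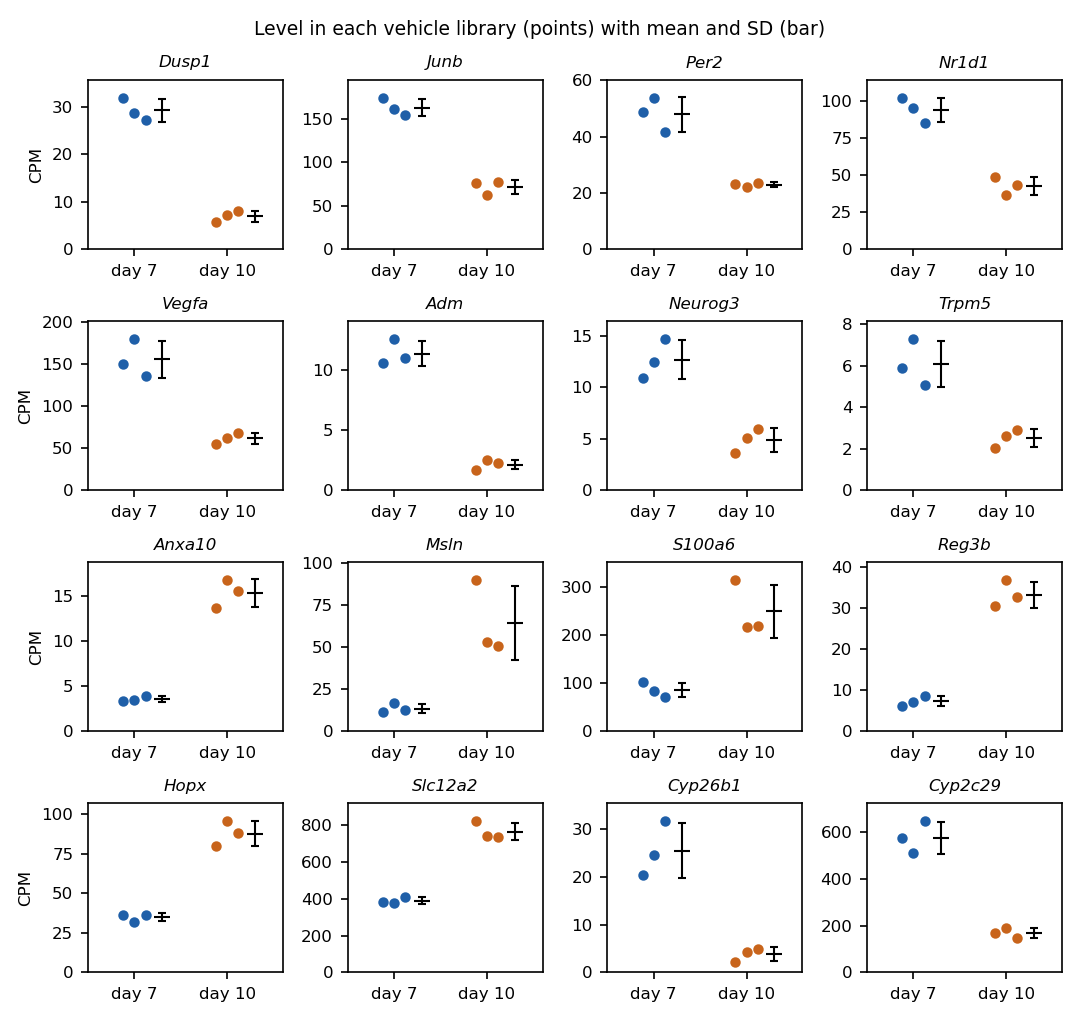
CPM (y axis, from 0) in each of the 3 EtOH libraries of day 7 (blue) and day 10 (orange) for 16 genes, with the mean and SD beside them. In no panel do the libraries of the days overlap, and for Msln and S100a6 day 10 replicate 1 (the left orange point, 89.7 and 314 CPM) stands above the others. Over all genes tested, day 10 lay wholly above day 7 for 30.9% and wholly below for 28.4%.

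Stem cell genes divided. Of 19 tested, 7 rose and 2 fell (median 0.37). Hopx, a marker of slowly cycling crypt cells, rose from 36.5, 32.1 and 36.5 to 79.7, 95.2 and 87.9 CPM (1.32 ± 0.083, adjusted p = 1.81e-13). Slc12a2, a chloride cotransporter of crypt cells, rose from 383, 374 and 411 to 819, 739 and 734 CPM (0.97 ± 0.072). Olfm4, the secreted olfactomedin of crypt base stem cells, rose from 1580, 1340 and 1640 to 2570, 2550 and 2350 CPM (0.71 ± 0.16), but at 0.47 it missed the fold after the GC correction. Smoc2 (0.64), Prom1 (0.65) and Lrig1 (0.62) lay near the fold threshold. Without day 7 replicate 1, Prom1 was at 0.58 and Lrig1 at 0.57, and neither was called. The defining markers Lgr5 (0.27 ± 0.13, adjusted p = 0.0873) and Ascl2 (0.04 ± 0.26, adjusted p = 0.909) were not called. Lgr5 stood at 127, 136 and 169 CPM and then at 160, 183 and 178 CPM, overlapping. Sox9, a crypt transcription factor under Wnt control, fell from 163, 141 and 138 to 79.1, 64.3 and 62.1 CPM (-1.11 ± 0.088). Of 27 Wnt pathway genes, none rose and 3 fell, Myc among them, and of 15 Notch pathway genes none was called (medians -0.13 and -0.15). Over all genes tested 9.39% rose and 13.9% fell, so the share of Wnt falls was below that.

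Secreted Reg lectins, which bind bacterial walls, rose in 3 of 6 with none falling (median 0.69). Keeping just genes that reach 10 counts in each library, 1 of the remaining 3 rose (median 0.44), and without day 7 replicate 3 one of the 6 fell. Reg3b went from 6.2, 7.22 and 8.58 to 30.5, 36.8 and 32.8 CPM, with a wide gap between days (2.18 ± 0.29, adjusted p = 4.82e-06). Reg1 went from 1.56, 1.58 and 2.54 to 7.31, 9.56 and 8.42 CPM (2.15 ± 0.28). Reg3g went from 38.3, 41.7 and 47.2 to 59.5, 87 and 88.5 CPM (0.88 ± 0.25, adjusted p = 0.0062), and after the GC correction it no longer passed (adjusted p = 0.0617). Ccl20, the chemokine that draws cells to lymphoid follicles, rose from 3.28, 3.02 and 1.68 to 13.5, 6.07 and 5.28 CPM, with day 10 replicate 1 the highest.

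Secretory lineage transcription factors fell in 7 of 15, and none rose (median -0.51). Neurog3, which commits cells to the enteroendocrine fate, went from 10.9, 12.5 and 14.7 to 3.58, 5.06 and 5.94 CPM (-1.39 ± 0.20, adjusted p = 3.11e-06). Its downstream factors Pax4 (-1.41 ± 0.25) and Insm1 (-1.36 ± 0.27) fell as well, and of the 12 enteroendocrine genes tested 5 fell and none rose (median -1.38). Keeping just genes that reach 10 counts in each library, 4 of them remained, of which 1 fell (median 0.02), and with only the groups compared 8 remained, of which 4 fell (median -0.70). Atoh1, at the head of the secretory programme, fell from 31.7, 33.8 and 32.3 to 19.2, 19.2 and 18.1 CPM (-0.79 ± 0.074), and Foxa2 by 0.77.

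Of 18 tuft cell genes, 10 fell and 1 rose (median -0.88). Keeping just genes that reach 10 counts in each library, 3 of the remaining 7 fell and 1 rose. Pou2f3, the tuft cell master regulator, went from 6.51, 4.9 and 3.6 to 1.65, 2.43 and 2.18 CPM (-1.26 ± 0.23, adjusted p = 2.91e-05). Trpm5, the cation channel of taste transduction, went from 5.9, 7.27 and 5.08 to 2.03, 2.63 and 2.89 CPM (-1.27 ± 0.20). Sh2d6 (-2.79) and the actin-binding protein Avil (-1.82) fell further from lower levels. Hpgds, which makes prostaglandin D2, was the member that rose, from 3.98, 4.8 and 4.98 to 9.35, 9.66 and 11.2 CPM. Dclk1 and Alox5ap did not pass the filter on low counts.

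The goblet, Paneth and M cell counts stand beside 9.39% of all genes tested that rose and 13.9% that fell, and several are near these shares. Of 21 goblet genes, 2 rose and 4 fell (median 0.03), with 1 rise and 5 falls without day 7 replicate 1 and 1 and 6 without day 7 replicate 2. Muc2, the main gel-forming mucin, overlapped between days at 245, 227 and 187 against 284, 192 and 197 CPM (0.03 ± 0.21, adjusted p = 0.914), and Tff3, the trefoil peptide, was not called either (0.16, adjusted p = 0.123). Creb3l1, an ER-bound transcription factor, fell from 299, 236 and 271 to 116, 124 and 125 CPM (-1.14 ± 0.076), and Ccl6 fell by 1.58 and Klk1 by 0.69. Of 21 Paneth genes, 3 rose and 4 fell (median 0.08), and 1 rose and 7 fell after the GC and length correction. Lyz1, the Paneth lysozyme, rose from 3810, 3130 and 3550 to 5700, 5880 and 5850 CPM (0.73 ± 0.11) with 34.2% of its words shared, and was at 0.47 after the GC correction. Nupr1 (-1.25) and Habp2 (-0.94) fell. The α-defensins Defa20 (1.86) and Defa29 (-1.18) have 100% and 72.2% of their words in other genes, so their opposite changes are uncertain. Of 8 M cell genes, 1 rose and 2 fell.

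Among enterocyte brush border genes, 9 of 33 fell and 1 rose (median -0.18), with 2 rises without day 7 replicate 2, day 10 replicate 2 or day 10 replicate 3. Espn, an actin-bundling protein of microvilli, went from 331, 249 and 258 to 96, 102 and 104 CPM (-1.47 ± 0.12, adjusted p = 6.71e-10). Anpep, aminopeptidase N, went from 579, 652 and 641 to 287, 295 and 301 CPM (-1.08 ± 0.084). Cdhr5, a protocadherin that links microvilli (-1.09), trehalase Treh (-0.95) and Ggt1 (-0.70), which cleaves glutathione, fell too. Tmigd1, an adhesion protein, rose from 4.79, 3.17 and 4.37 to 28.9, 10.9 and 10.1 CPM, with day 10 replicate 1 far above the rest (2.02 ± 0.43, adjusted p = 0.000641). Alpi, the defining alkaline phosphatase, was at 755, 663 and 513 and then at 653, 368 and 372 CPM (-0.47 ± 0.23, adjusted p = 0.0979). It was called without day 10 replicate 1 (-0.80, adjusted p = 0.00591). The next counts are small and are to be read against the 13.9% of all genes tested that fell. Of 11 villus tip genes 3 fell, and of 9 bile acid genes 3 fell. Of 25 lipid uptake genes 5 fell and 1 rose (3 falls without day 10 replicate 1 and 2 rises without day 7 replicate 3). Apoa4, a chylomicron apolipoprotein, fell by 0.88 with 64.5% of its words shared. Of 26 sterol synthesis genes 3 fell, namely Fdft1 (-0.88), Dhcr7 (-0.82) and Nsdhl (-0.78), and none rose, a share of falls below that over all genes.

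Cytochrome P450 genes fell in 14 of 29, and none rose (median -0.61, and 17 of 29 after the GC and length correction). Cyp26b1, which clears retinoic acid, went from 20.3, 24.5 and 31.6 to 2.13, 4.3 and 4.97 CPM (-2.75 ± 0.27, adjusted p = 1.04e-07). Cyp2c55, a xenobiotic and fatty acid oxidase, went from 290, 318 and 323 to 69, 106 and 78.4 CPM (-1.88 ± 0.15). Cyp2c29 went from 574, 509 and 645 to 168, 191 and 148 CPM (-1.77 ± 0.15). Cyp2b10, the classical target of the receptor CAR, went from 504, 454 and 459 to 140, 170 and 137 CPM (-1.67 ± 0.23). Cyp2s1 (-1.51) and Cyp2c66 (-1.36) fell likewise, and in none of these 6 genes did the days overlap. Day 10 lay wholly below day 7 for 28.4% of all genes tested. Cyp1a1, the classical target of the aryl hydrocarbon receptor, was at 1.92, 1.34 and 2.18 and then at 2.52, 2.98 and 2.94 CPM, not called (0.63, adjusted p = 0.0511). It was called as higher under 5 of the 13 alternatives run for it (with no filter, limma-voom, only the groups compared, the replicate block, and without day 7 replicate 3, where it reached 0.79), with a smallest adjusted p of 0.0334. Many P450 genes are near-identical copies: 8 of the 29 had under 5% of shared words, and 3 of those 8 fell.

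Related metabolic lists moved in part. Of 22 retinoid and alcohol dehydrogenase genes 5 fell and none rose, among them Adh1 (-0.91 ± 0.12), which oxidizes retinol and ethanol, and Isx (-0.80), the homeobox repressor of carotenoid uptake. Adh1 stood at 649, 692 and 548 and then at 320, 343 and 339 CPM. Of 25 NRF2 targets 3 rose and 5 fell (median -0.14), against 9.39% rises and 13.9% falls over all genes tested. The glutathione transferases Gstm3, from 671, 727 and 834 to 118, 206 and 209 CPM (-2.07 ± 0.18), and Gstm1 (-1.30) fell, as did haem oxygenase Hmox1 (-1.22) and the exporter Abcc2 (-0.84). Prdx1, a peroxidase, rose from 512, 448 and 525 to 818, 891 and 899 CPM, and Gsta1 (0.85) and Taldo1 (0.65) rose too. After the correction for GC and length, Prdx1 stood at 0.53 and Gsta1 at 0.54, below the fold. Gstm3, Gstm1 and Gsta1 share 37.7, 34.3 and 92.2% of their words.

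Hypoxia-responsive and glycolytic genes fell in 13 of 32 and rose in 2 (median -0.39). Adm, the vasodilator adrenomedullin, went from 10.6, 12.6 and 11 to 1.7, 2.48 and 2.23 CPM (-2.42 ± 0.22, adjusted p = 5.69e-10). Vegfa, the endothelial growth factor, went from 151, 180 and 136 to 54.6, 62.8 and 67.7 CPM (-1.34 ± 0.079). Both are targets of the hypoxia-inducible factor, and each had all day 10 libraries below all of day 7. So did 28.4% of all genes tested. Hexokinase Hk1 (-1.32), Pfkfb3 (-1.28), which raises glycolytic flux, Ankrd37 (-1.28), the histone demethylase Kdm3a (-0.74) and the glucose transporter Slc2a1 (-0.68) fell as well, although Slc2a1 stood at -0.54 after the GC correction. Pgam1, phosphoglycerate mutase, rose from 45.8, 40.3 and 41.1 to 89.3, 91.3 and 90.4 CPM (1.09 ± 0.076) with 42.1% of its words shared. Gapdh, named after its value was seen, fell from 55.7, 72.5 and 43.9 to 12.1, 7.43 and 9.74 CPM (-2.55 ± 0.20), with 31.8% of its words shared with other genes.

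Of 13 mitochondrially encoded genes 11 fell and none rose (median -2.12). The complex I subunit mt-Nd1 went from 10100, 9460 and 8280 to 2510, 2460 and 2180 CPM (-1.96 ± 0.092, adjusted p = 4.33e-16). The gene mt-Nd2 fell by 2.12 and mt-Cytb by 1.46. Of the 13 genes only 1 had under 5% of shared words. The GC and length trend was fitted on nuclear protein-coding genes and then applied to these. The oxidase subunit mt-Co1 was not called, at 9750, 10300 and 8550 and then at 6680, 6920 and 7110 CPM (-0.46, adjusted p = 0.00164), but was called as lower after the GC and length correction (-0.86, adjusted p = 4.49e-05), and 63.9% of its words occur in other genes. Of 77 nuclear respiratory chain genes 17 rose and 2 fell (median 0.32), and 9 rose and 5 fell after the GC correction. Ndufa9, a complex I subunit, rose from 61.4, 64.2 and 74.8 to 109, 117 and 117 CPM (0.78 ± 0.072), and stood at 0.55 after that correction. Of 77 cytosolic ribosomal protein genes 20 rose and 12 fell (median 0.20), but 11 rose and 16 fell after the correction, so the balance of calls depended on it.

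Of 32 DNA replication genes 4 rose and none fell (median 0.22), and of 30 mitosis genes 3 rose and 3 fell (median 0.27), against 9.39% rises and 13.9% falls over all genes tested. The rises numbered 7 and 6 without day 7 replicate 3 and 3 and 1 without day 7 replicate 1, and the mitosis rises 5 without day 10 replicate 1. Mki67, the proliferation antigen, overlapped between days at 247, 305 and 329 against 346, 288 and 268 CPM (0.03 ± 0.13, adjusted p = 0.847). Rfc4 (0.97 ± 0.13), of the clamp loader, Pola1 (0.92 ± 0.13), of the primase complex, Gins2 (0.80 ± 0.13) and Mcm6 (0.61 ± 0.098), of the replicative helicase, rose. Cdk1 (0.63) and the centromere histone Cenpa (0.63) rose while the mitotic kinase Plk1 (-0.59), Foxm1 (-0.62) and Tpx2 (-0.63) fell, all near the fold threshold. Mcm6 missed it without day 7 replicate 1 (0.56), day 7 replicate 2 (0.55) or day 10 replicate 2 (0.58), and Cdk1 without day 7 replicate 1 (0.57), day 7 replicate 2 (0.56) or day 10 replicate 3 (0.55). Plk1 missed it without day 7 replicate 1 (-0.55), day 10 replicate 2 (-0.56) or day 10 replicate 3 (-0.58), and Tpx2 without day 7 replicate 3 (-0.58). After the GC and length correction Plk1 (-0.48) and Foxm1 (-0.38) were no longer called.

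The counts for stress, immune and signalling lists stand beside 9.39% of all genes tested that rose and 13.9% that fell, and several of their shares are near or below these. Of 26 ATF4 target genes 2 rose and 7 fell, and Atf4 itself fell by 0.71 and Chac1, which degrades glutathione, by 1.23. The ATF4 rises numbered 5 without day 7 replicate 3 and 4 without day 10 replicate 1. Of 26 ER folding genes 2 rose and 5 fell, the falls numbering 3 without day 10 replicate 2. Of 22 p53 targets 1 rose and 3 fell, and the rises numbered 3 without day 7 replicate 1, 2 without day 10 replicates 2 or 3, and 0 without day 7 replicates 2 or 3. Of 20 apoptosis genes 1 rose and 1 fell, with 2 falls without day 7 replicate 3, day 10 replicate 1 or day 10 replicate 3 and no rise without the last. Of 31 interferon-stimulated genes 3 rose and 3 fell, with Oasl1 at 40.8, 47.6 and 46.9 and then at 11.9, 19.9 and 22.3 CPM (-1.33 ± 0.25) and the signal transducer Stat2 at -1.18 ± 0.093. Of 16 BMP and TGF-beta response genes 3 rose and 4 fell, the rises being the BMP targets Id1, Id2 and Id3. Id2 (0.70) stood at 0.45 after the GC and length correction and was no longer called. Of 12 regional identity genes 4 fell and none rose (median -0.29). Cd68, a lysosomal glycoprotein of macrophages, fell from 2.82, 3.22 and 3.76 to 0.775, 1.11 and 1.17 CPM.

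Counts for the remaining lists also stand beside 9.39% of all genes tested that rose and 13.9% that fell, and several are near or below these shares. Among them, 2 of 14 fatty acid synthesis genes fell, 2 of 25 fatty acid oxidation genes rose and 2 fell. Of 31 conjugation and carboxylesterase genes 2 rose and 4 fell (1 rise without day 7 replicate 2). Of 19 amino acid transporters 3 fell, and of 15 iron and metal genes 2 rose and 3 fell, with 1 rise when day 7 replicate 1 or 2 or day 10 replicate 2 or 3 was left out. Of 16 MHC class I genes 2 rose and 1 fell, but none rose without day 7 replicate 3 or without day 10 replicate 3. The falls numbered 2 without day 7 replicate 3 or day 10 replicate 2. Neither of 2 MHC class II genes was called. Of 21 epithelial inflammation genes 2 rose and 2 fell, with 1 rise without day 7 replicate 3 or day 10 replicate 1. Of markers of other organs, 1 of 5 gastric and colonic genes rose and 1 of 3 pancreatic genes fell.

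List counts after the correction for GC and length, where not given above, are set out here as rises and falls. They stand beside 6.87% rises and 14.3% falls over all genes tested after the correction, and several are near these shares. Secretory and enterocyte lists gave tuft 1 and 10, enteroendocrine 0 and 5, secretory transcription factors 1 and 6, goblet 2 and 5, Paneth 1 and 7, M cell 1 and 2, brush border 2 and 8, and villus tip 0 and 3. Metabolic lists gave hypoxia and glycolysis 2 and 11, mitochondrially encoded 0 and 12, NRF2 targets 1 and 5, conjugation and carboxylesterase 1 and 9, retinoid 0 and 6, bile acid 0 and 4, lipid uptake 0 and 5, sterol synthesis 1 and 3, fatty acid synthesis 0 and 4, and fatty acid oxidation 2 and 2. Conjugation genes stood at 2 and 4 before the correction, and of their 11 members with under 5% of shared words none was called. Stem cell, growth and signalling lists gave stem cell 5 and 1, DNA replication 5 and 1, mitosis 2 and 1, Wnt 1 and 2, Notch 1 and 0, BMP and TGF-beta 2 and 3, EGF and MAPK feedback 0 and 4, and regional identity 0 and 2. EGF and MAPK feedback genes had 1 rise and 2 falls, and regional identity genes 4 falls, without it. Stress and immune lists gave Reg lectins 2 and 1, ATF4 2 and 5, ER folding 2 and 4, p53 1 and 3, apoptosis 2 and 3, interferon 3 and 3, MHC class I 3 and 2, MHC class II 0 and 0, and epithelial inflammation 1 and 2. Amino acid transporters gave 0 and 3, iron and metal genes 2 and 3, gastric and colonic genes 1 and 0, and pancreatic genes 0 and 1.

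None of the 6 tested genes of the Mediator kinase module, the complex that the line's alleles target, was called. Cdk8 was at 49.6, 47.7 and 50.2 and then at 57.1, 53.9 and 56.2 CPM (0.18 ± 0.069, adjusted p = 0.0281). Cdk19 was at 39, 39.6 and 39.7 and then at 42, 39.7 and 39.6 CPM (0.04 ± 0.066, adjusted p = 0.673). Cdk19 counts per gene do not check the allele, since the labels call it a knockout and reads were still assigned to it. Ccnc, cyclin C, was higher by 0.42 ± 0.098 (adjusted p = 0.000593) with the days apart, below the fold. Med12 (-0.22), Med13 (-0.23) and Med13l (-0.06) were not called.

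The same interval was followed in the 4-OHT arm, whose 6 libraries are separate from the EtOH ones. There 5622 genes (36.4%) were called, and 2806 (18.2%) rose and 2816 (18.2%) fell. Of the EtOH calls, 1179 rises (81.3% of EtOH rises and 42% of 4-OHT rises) and 1563 falls (72.7% and 55.5%) were also called in the same direction with 4-OHT, and 11 were called in opposite directions. With 4-OHT, 14 of 21 immediate early genes, 9 of 17 clock genes and 21 of 32 hypoxia and glycolysis genes fell, and 10 of 21 regenerative genes rose while 4 fell. Dusp1 changed by -2.75, Junb by -1.29, Per2 by -1.25, Nr1d1 by -1.42, Anxa10 by 2.60, Msln by 3.02 and Hopx by 1.49 with 4-OHT, and for each the difference from EtOH was not called. The mitochondrial share and the GC trend moved in the 4-OHT libraries as they did with EtOH.

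The change itself differed between the arms for 990 genes (6.41%), of which 529 (3.42%) changed more positively with EtOH and 461 (2.98%) less so. Of the genes called in EtOH, 299 were among them. Cyp2b10 fell with EtOH but was at 249, 266 and 304 and then at 278, 255 and 178 CPM with 4-OHT, overlapping (difference -1.46 ± 0.32, adjusted p = 0.00499). Gstm1 likewise was at 552, 549 and 543 and then at 678, 540 and 479 CPM with 4-OHT (difference -1.35 ± 0.17). Cyp2c29 and Cyp2c66 fell more with EtOH (differences -1.14 and -0.91), and so did Gstm3 (-1.14). In the opposite direction, Cyp26b1 fell from 23.7, 32.9 and 29.5 to 0.48, 0.58 and 0.516 CPM with 4-OHT, further than with EtOH (difference 3.01 ± 0.56), and Hk1, Pfkfb3 and Vegfa fell less with EtOH (1.29, 0.97 and 0.67). Reg1 rose with EtOH and was at 4.53, 3.35 and 2.17 and then at 2.56, 4.69 and 5.16 CPM with 4-OHT (difference 1.84 ± 0.40, adjusted p = 0.00208). Ly6a, not called with EtOH, fell with 4-OHT from 10.1, 20.9 and 21.3 to 4.37, 7.49 and 5.62 CPM (difference 1.79 ± 0.49). Of the NRF2 targets, 10 rose and 3 fell with 4-OHT against 3 and 5 with EtOH, and 11 of the 25 differed between arms.

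**Figure D4:**
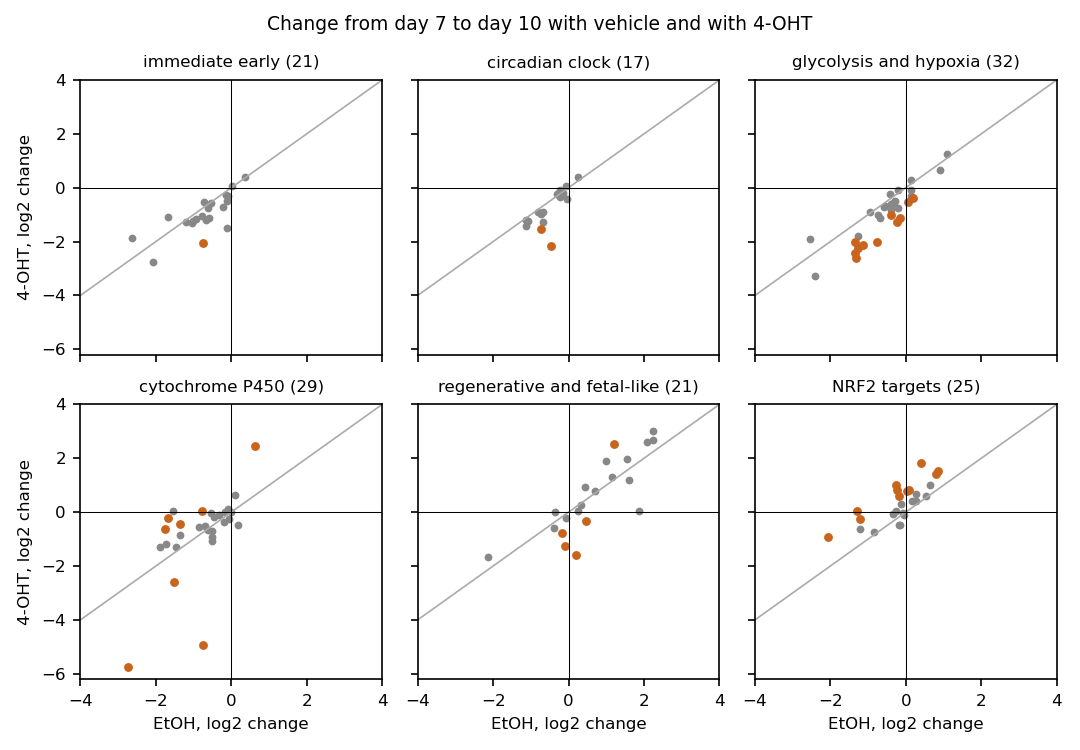
Log2 change from day 7 to day 10 with EtOH (x axis) and with 4-OHT (y axis) for the tested members of 6 lists, with the grey line marking equal change and orange points the genes whose change differed between arms by the call. Orange points lie mostly below the line for hypoxia and glycolysis genes and above it for NRF2 targets, of which 11 of 25 are orange.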

How the data were processed

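Poly-A RNA of intestinal organoids was sequenced as 100 bp paired ends. According to the submitters' processing notes, the authors aligned reads to mm10 with STAR 2.5.2 and counted them per gene with featureCounts of Subread 1.6.3. The deposited values are raw counts of 54752 genes, and strandedness and annotation release are not given in the sources used here. Of these genes 15447 passed edgeR's filterByExpr (minimum count 10). All 24 libraries of the time-course table (18369427 to 20884794 counts, 8 groups of 3) entered 1 edgeR 4.0.16 quasi-likelihood model (robust, TMM, group only, R 4.3.3), with Benjamini-Hochberg adjustment over all genes tested. Genes were called at adjusted p under 0.05 and fold over 1.5. CPM values were computed with TMM-scaled library sizes, and counting error at this depth limits genes of few CPM. The comparisons were EtOH day 10 with day 7, the same with 4-OHT, the difference of both, and EtOH day 7 with day 5. EtOH replicate pairs of days 7 and 10 differed by more than sampling noise. Chi-square per degree of freedom was 2.41 for day 10 replicates 2 and 3 and 9.77 to 12.2 for the other pairs within a day. Each library counted once, and these values cannot show whether libraries came from separate cultures.

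Genes named in the text are the 10 largest rises and falls among called genes with at least 50 counts on average in the higher group and no overlap, the 5 largest rises and falls in CPM, up to 6 called members of each list by adjusted p with its first 3 members, and the Mediator kinase module. Vil1, Gapdh and the leading protein-coding genes with little shared sequence were added after their values were seen. The rule gives 323 genes, and which of them the text spells out was decided with their values known. The 48 gene lists, and the members, were chosen with earlier results of these data known. Shared sequence is the percent of 31-base words of a gene's longest transcript found in another gene's. A correction for GC and length and a refit on nuclear protein-coding genes with under 5% shared words were chosen after seeing the data. Alternatives were limma-voom (limma 3.58.1), DESeq2 1.42.0, other filters and scalings, only the groups compared, a replicate block and leaving out each library. On simulated counts for this comparison (14670 genes) the fit recovered 78 of 100 genes changed 2-fold and 92 of 100 changed 4-fold, with 3 false calls. The simulated counts changed few genes and held no GC trend, mitochondrial shift or library-run effect. They therefore cannot give the number of false calls in these data.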

Additional observations from a re-analysis of the deposited data

Results flagged for a closer look

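The change from day 7 to day 10 differed between EtOH and 4-OHT for 990 genes by edgeR's test of the difference. Among the genes named here, values are the log2 change with EtOH minus that with 4-OHT. Cytochrome P450 and conjugation genes that fell more with EtOH, or rose less, were Cyp1a1 (-1.81), Cyp2b10 (-1.46), Cyp2c29 (-1.14), Cyp2c66 (-0.91), Gstm3 (-1.14) and Gstm1 (-1.35), and Gsta1 (-0.68) and Prdx1 (-0.62) rose less. Cyp26b1 (3.01), Cyp2s1 (1.10) and Adh1 (0.70) fell less. In the secretory lineage Insm1 (2.54), Pax4 (1.75) and Neurog3 (1.02) fell less with EtOH. Among metabolic and enterocyte genes Hk1 (1.29), Pfkfb3 (0.97), Vegfa (0.67), Ggt1 (1.06) and Anpep (0.65) fell less, and so did the clock gene Npas2 (0.82). Among stem, regenerative and Reg genes the differences were Reg1 (1.84), Ly6a (1.79), Reg3g (1.03), Lgr5 (0.66), Olfm4 (-0.70) and Clu (-1.34). Others were Alox12b (5.00, near 0 with 4-OHT at day 10, so its size depends on the prior count), Wipf1 (-2.08), Pik3r5 (-2.18) and Rfc4 (-0.66). Both arms come from 1 line, and the cause of these differences was not tested.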

How the results depend on the processing

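The count of 3601 calls kept within 1.5 times under every filter, scaling, tool and left-out library tried (3272 to 3886 over left-out libraries). For 4-OHT the left-out libraries gave 5268 to 5722 calls, for the difference 716 to 1215, and for EtOH day 7 against day 5 from 3 to 164. The refit on nuclear protein-coding genes with little shared sequence, which tests fewer genes, gave 1698, 2988, 646 and 49 calls in that order. The last count also moved to 184 with no filter, 139 with DESeq2 and 12 with only the groups compared, and the cause was not tested. The GC and length correction moved the share of rises among calls from 49.9 to 39.1% with 4-OHT and from 53.4 to 64.4% for the difference. Leaving out 4-OHT day 7 replicate 3 moved the latter to 42.5%. Same-numbered EtOH libraries of days 7 and 10 deviated together by correlations of 0.1, -0.03 and 0.09, so the numbers were not taken as pairs, and a replicate block gave 3608, 5638, 1039 and 102 calls. Alternatives were compared for 141 genes, most of them named here. Dbp, Id1, Id2 and Id3 are not among them, while mt-Nd5 and mt-Atp6 are, though not described above. Of the 122 called, 102 stayed called under every alternative run for them, and 16 of 19 others stayed uncalled. Between 13 and 15 alternatives were run for a gene, since genes with shared sequence or low counts are not in every refit. None reversed. Counts of 3 libraries a group limit what genes of few CPM can show.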
